A study of Homo sapiens with 10 samples.

Results

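The hexosamine pathway genes were 8 protein-coding genes: GFPT1, GFPT2, GNPNAT1, PGM3, UAP1, OGT, NAGK and AMDHD2. They were taken by symbol and gene type from 60603 genes, 19975 of them protein-coding, that both tables list. GFPT1 was selected on the authors' ranking of genes in a hairpin comparison of this series, and the other members were chosen by their place in the same pathway. The libraries behind that ranking also enter the knockdown values of GFPT1 below, so these values are a description and no test was made on them.

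NB4, the cell line used throughout, derives from acute promyelocytic leukemia. In the GSE1 knockdown experiment, NB4 cells carried the empty lentiviral vector pLKO.1 puro (EV), or that vector with the hairpin shA1 or shB2 against GSE1, a chromatin protein that binds LSD1, and were harvested 48 h after transduction. In the LSD1 inhibition experiment, NB4 cells were given DMSO or the LSD1 inhibitor MC2580 at 2 µM for 24 h. Each of the 5 groups had 2 libraries of mRNA, 6 in the knockdown and 4 in the inhibition experiment. The level of a gene is given here as its base mean, the authors' average over all libraries of an experiment of the counts divided by a size factor per library. It therefore mixes control and perturbed cells: an effect of shA1, shB2 or MC2580 on a member cannot be read from it, the knockdown of GSE1 cannot be checked, and no standard deviation, interval or p-value can be given.

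The hexosamine pathway makes UDP-GlcNAc, the activated sugar that cells use for N-glycans, for hyaluronan and GPI anchors, and for O-GlcNAc, a single sugar placed on nuclear and cytoplasmic proteins. GFPT1 and its paralog GFPT2 encode the enzyme that joins fructose-6-phosphate with the amide nitrogen of glutamine, the step that limits the flow into the pathway. GNPNAT1 acetylates the product, PGM3 moves its phosphate, and UAP1 couples it to UTP. NAGK brings free N-acetylglucosamine back into the pathway, AMDHD2 removes the acetyl group in the reverse direction, and OGT places O-GlcNAc on proteins.

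The promoters of 3 members are shown because their levels stood furthest apart: GFPT1, at a much larger share of the signal in one experiment than in the other, its paralog GFPT2, at almost no signal in either, and AMDHD2, which had the larger share in the other experiment. Each is the RefSeq window on GRCh38.p14 from 250 bases before to 50 bases after the start of the gene, written 5′ to 3′ on the strand of the gene. Capitals mark every match, on either strand, to GGGCGG (a GC box), CACGTG (an E-box) or CCAAT.
GFPT1 (chr2:69387178-69387477, minus strand): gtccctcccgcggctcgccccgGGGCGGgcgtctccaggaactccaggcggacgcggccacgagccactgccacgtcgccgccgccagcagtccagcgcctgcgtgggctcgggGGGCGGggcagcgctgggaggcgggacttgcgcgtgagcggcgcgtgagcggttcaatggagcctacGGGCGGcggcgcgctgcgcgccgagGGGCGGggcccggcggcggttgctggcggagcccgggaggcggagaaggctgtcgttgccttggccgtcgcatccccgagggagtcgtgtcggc
GFPT2 (chr5:180353287-180353586, minus strand): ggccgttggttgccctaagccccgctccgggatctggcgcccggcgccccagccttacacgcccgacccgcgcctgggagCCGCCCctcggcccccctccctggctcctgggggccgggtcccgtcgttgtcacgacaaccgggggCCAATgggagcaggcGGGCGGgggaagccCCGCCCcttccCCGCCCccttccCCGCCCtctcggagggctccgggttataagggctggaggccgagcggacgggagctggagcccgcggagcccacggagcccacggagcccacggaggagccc
AMDHD2 (chr16:2520121-2520420, plus strand): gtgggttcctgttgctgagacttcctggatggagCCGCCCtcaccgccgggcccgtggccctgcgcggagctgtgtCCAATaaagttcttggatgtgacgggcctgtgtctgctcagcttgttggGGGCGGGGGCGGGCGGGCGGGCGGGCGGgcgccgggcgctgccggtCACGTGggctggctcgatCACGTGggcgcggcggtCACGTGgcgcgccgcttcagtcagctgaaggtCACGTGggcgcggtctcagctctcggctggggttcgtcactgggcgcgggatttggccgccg

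The GFPT1 window held 4 GC boxes, 47 CpG dinucleotides and no E-box or CCAAT. The GFPT2 window held 5 GC boxes, 1 CCAAT and 32 CpG. More CpG than in 97.6% of 35116 RefSeq windows of this length stood in the GFPT1 window, and more than in 81.1% in that of GFPT2, so the paralog with almost no mRNA also has a promoter rich in CpG. The AMDHD2 window held 7 GC boxes, several of which overlap, and 4 E-boxes, whose first bases lie at -79, -61, -44 and -12 from the start. At least 1 E-box was present in 7.26% of all windows, and at least 4 in 5 windows, that of AMDHD2 among them, or 0.0142%. The 8 members have 12 windows in the RefSeq table, since PGM3, UAP1 and NAGK have more than 1 start. A GC box was present in 11 of the 12 windows and in all 8 members, against 45.0% of all windows, and CCAAT in 6 of the 12, against 34.6%. An E-box was present in 1 of the 12, that of AMDHD2, against 7.26%. The windows of UAP1 overlap, so the same GC box can be counted in more than 1 of them. G and C made up 57.7% (OGT) to 79.3% (GNPNAT1) of the member windows, against a median of 58.7% over all windows. The counts were not adjusted for this. The letters TATAAA and TGACGTCA occurred in 0 of the 12 windows, against 11.5% and 1.85% of all windows. These matches are descriptions of the letters, and binding of a factor was not measured.

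GFPT1 (ENSG00000198380.12) lies on the minus strand of chromosome 2 of GRCh38, from 69319780 to 69387250. Its base mean was 6247 in the knockdown experiment and 2094 in the inhibition experiment. Protein-coding genes at or above a minimum base mean of 10 numbered 12609 in the knockdown and 12583 in the inhibition table, and among them GFPT1 ranked 1338th and 4003rd from the top. It lay above 89.4% of these genes in the knockdown table and above 68.2% in the inhibition table.

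GFPT2 (ENSG00000131459.13, chromosome 5, 180300698 to 180353336, minus strand) had a base mean of 2.85 in the knockdown and 1.57 in the inhibition experiment. It was the single member under the minimum of 10 in both tables. The GFPT1 base mean was 2193 times that of GFPT2 in the knockdown and 1332 times in the inhibition experiment, on a scale not divided by length, and the coding lengths of the paralogs are similar, 2097 and 2046 bases. No stretch of 50 bases is shared between the annotated transcripts of GFPT1 and GFPT2 (0 of 8994 and 0 of 4696 such stretches). Nearly all glutamine-fructose-6-phosphate amidotransferase mRNA in these NB4 cultures was therefore assigned to GFPT1.

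The base means of the 3 enzymes that follow GFPT1 are given here without division by length. GNPNAT1 (ENSG00000100522.10, chromosome 14, 52775193 to 52791668, minus strand) had base means of 1160 and 1229 in the knockdown and inhibition experiments. PGM3 (ENSG00000013375.16, chromosome 6, 83147324 to 83193936, minus strand) had 902 and 799. UAP1 (ENSG00000117143.13, chromosome 1, 162561722 to 162601240, plus strand) had 1591 and 1944. Each of these lay above 45.0% to 66.4% of the protein-coding genes that reached the minimum.

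OGT (ENSG00000147162.14, chromosome X, 71533087 to 71575892, plus strand) had the highest base mean of the 8 genes in both tables on a scale not divided by length, 7816 in the knockdown and 8568 in the inhibition experiment. It lay above 92.3% and 93.1% of the protein-coding genes. NAGK (ENSG00000124357.13, chromosome 2, 71064344 to 71079808, plus strand) had 2723 and 2243. AMDHD2 (ENSG00000162066.15, chromosome 16, 2520357 to 2531422, plus strand) had 842 and 1396. Per coding kilobase, the ratio of the salvage kinase NAGK to the deacetylase AMDHD2 was 3.84 in the knockdown and 1.91 in the inhibition experiment. Per kilobase of all annotated exons it was 1.59 and 0.789, so in the inhibition experiment the order of these genes turned with the length used.

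**Figure D1:**
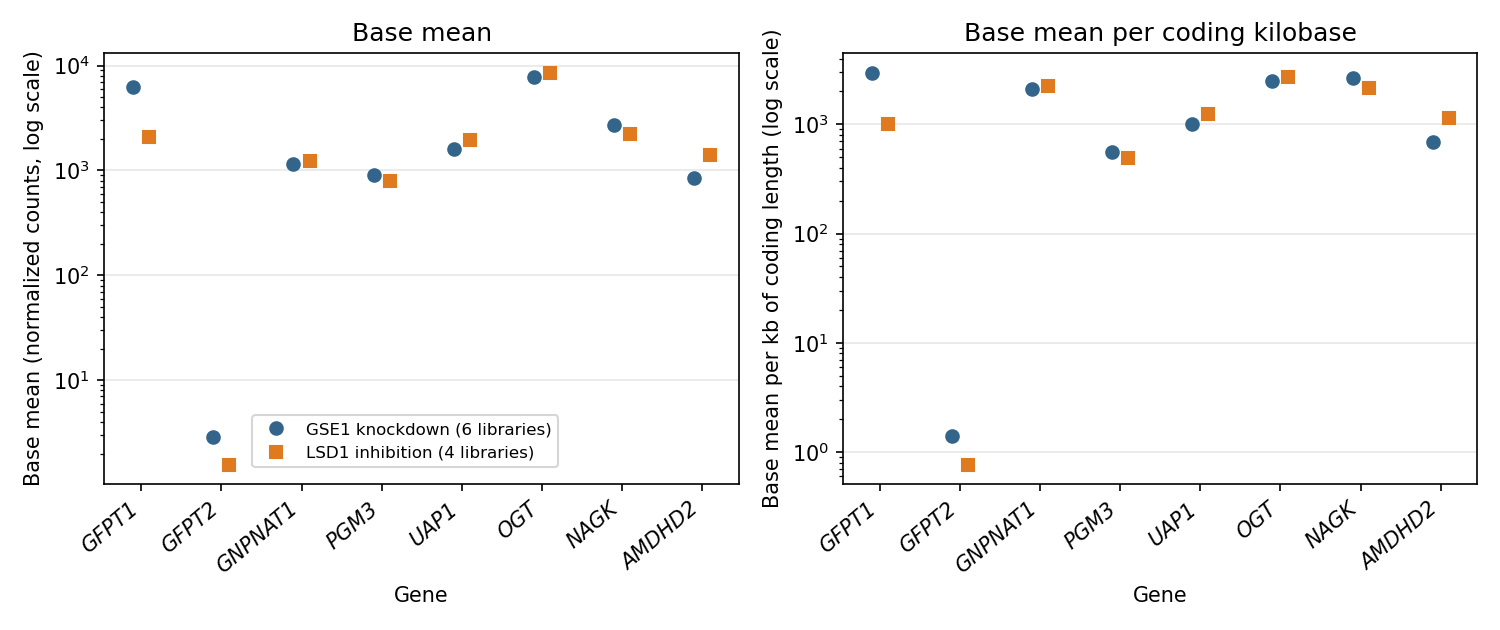
Base mean (left) and base mean per kilobase of coding length (right) of the 8 hexosamine pathway genes, on log axes. Circles are the authors' means over the 6 libraries of the GSE1 knockdown experiment and squares those over the 4 libraries of the LSD1 inhibition experiment, with no error bars because no value per library was used. GFPT1 is the gene with the widest gap among the expressed members (6247 against 2094), and GFPT2 lies at 2.85 and 1.57.

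Levels of different genes can be compared only per length, and they were divided by the coding length of the canonical GENCODE transcript. On this scale GFPT1 was the first of the 8 genes in the knockdown experiment, with a base mean of 2979 per kilobase, followed by NAGK (2639), OGT (2491), GNPNAT1 (2102), UAP1 (1016), AMDHD2 (686) and PGM3 (555). In the inhibition experiment the order per kilobase was OGT (2730), GNPNAT1 (2227), NAGK (2173), UAP1 (1241), AMDHD2 (1137), GFPT1 (999) and PGM3 (492). GFPT1 thus stood at place 1 in the knockdown and at place 6 in the inhibition table. Neighbours in these orders, such as NAGK and OGT in the knockdown or GNPNAT1 and NAGK in the inhibition table, cannot be said to differ, because the spread between libraries is not known. The place of GFPT1 depended on the length used: per kilobase of all annotated exons it was 2 in the knockdown and 6 in the inhibition table, and per kilobase of the canonical transcript 3 and 6.

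Within the chain from fructose-6-phosphate to UDP-GlcNAc, GFPT1 made up a different share in each experiment. The base means of GFPT1, GFPT2, GNPNAT1, PGM3 and UAP1, not divided by length, summed to 9904 in the knockdown experiment, of which GFPT1 was 63.1%, and to 6068 in the inhibition experiment, of which it was 34.5%. Without GFPT1 the sums were 3656 and 3974, which are closer to each other than the sums with GFPT1. Per coding kilobase, GFPT1 was 44.8% and 20.1% of the sum. The ratio of GFPT1 to GNPNAT1 per coding kilobase was 1.42 in the knockdown and 0.448 in the inhibition experiment, and that of GFPT1 to UAP1 was 2.93 and 0.805. Their size depended on the length used. Per kilobase of all annotated exons, GFPT1 to GNPNAT1 was 2.44 and 0.772 and GFPT1 to UAP1 was 2.05 and 0.562, and per kilobase of the canonical transcript they were 2.40 and 0.760, and 1.61 and 0.443. With each of these 3 lengths the ratios to GNPNAT1 and UAP1 were above 1 in the knockdown and below 1 in the inhibition experiment. The ratio of GFPT1 to PGM3 was above 1 in both experiments with each length. It was 5.37 and 2.03 per coding kilobase and 17.2 and 6.51 per kilobase of all annotated exons. Per kilobase of the canonical transcript it was 4.86 and 1.84. How far a ratio moved between the experiments does not depend on the length. These ratios are taken within a table, so the scaling of the tables to each other does not enter them.

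**Figure D2:**
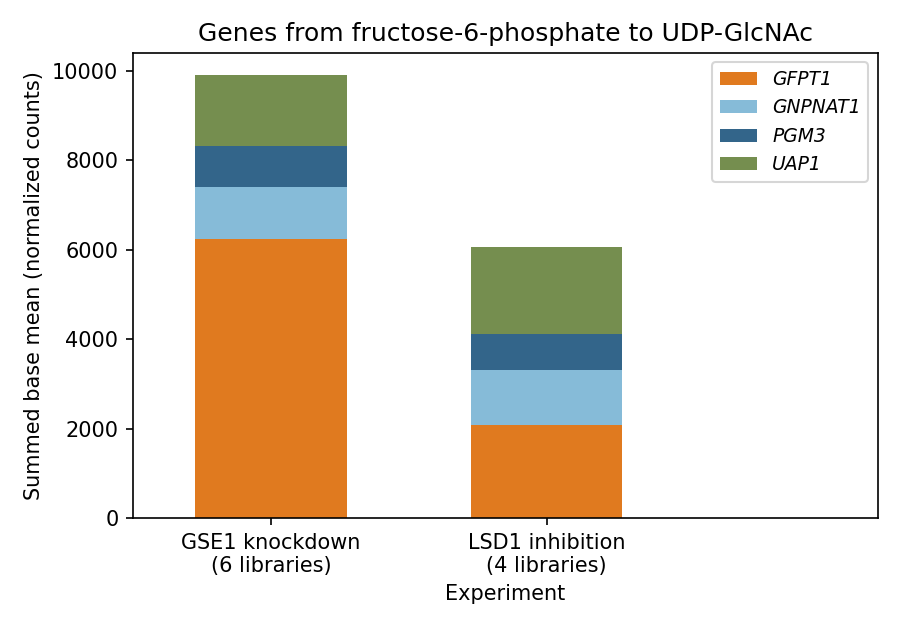
Base means of GFPT1, GNPNAT1, PGM3 and UAP1 stacked for each experiment, on an axis of normalized counts that starts at 0. GFPT2 is left out because its base means of 2.85 and 1.57 would not be visible. The GFPT1 segment is 6247 in the knockdown and 2094 in the inhibition bar, while the other segments together are of nearly equal height.

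To set the tables beside each other, each base mean was divided by the sum of all base means of its table, 40543130 in the knockdown and 41201112 in the inhibition experiment. The tables were normalized separately, and the experiments differ in vector, time and treatment, which cannot be told apart here. GFPT1 had a share of 154 parts per 1000000 in the knockdown and 50.8 parts per 1000000 in the inhibition experiment, 3.03 times as much, a log2 ratio of 1.60. Across the 12354 protein-coding genes that reached this minimum of 10 in both tables, the median log2 ratio was 0.09, and GFPT1 was above 98.9% of them, at place 139 from the top. A share more than 2 times higher in the knockdown experiment was found for 4.89% of these genes and a share more than 2 times lower for 1.26%. Of the 7 members above the minimum, 1 was over 2 times higher, GFPT1, and 0 were over 2 times lower. Because GFPT1 was chosen with results of the knockdown libraries known, nothing is read from this count.

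Among the other members, NAGK had a log2 ratio of 0.30 and PGM3 of 0.20, both higher in the knockdown experiment. GNPNAT1 had -0.06, OGT -0.11 and UAP1 -0.27, which are lower in the knockdown experiment. These 5 of the 7 expressed members differed by less than 1.5 times, as did 77.9% of all protein-coding genes compared. AMDHD2 had a log2 ratio of -0.71, a share 1.63 times higher in the inhibition experiment, and lay above only 4.01% of the genes. The median over the 7 members was -0.06. GFPT2, at almost no signal, was not compared.

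**Figure D3:**
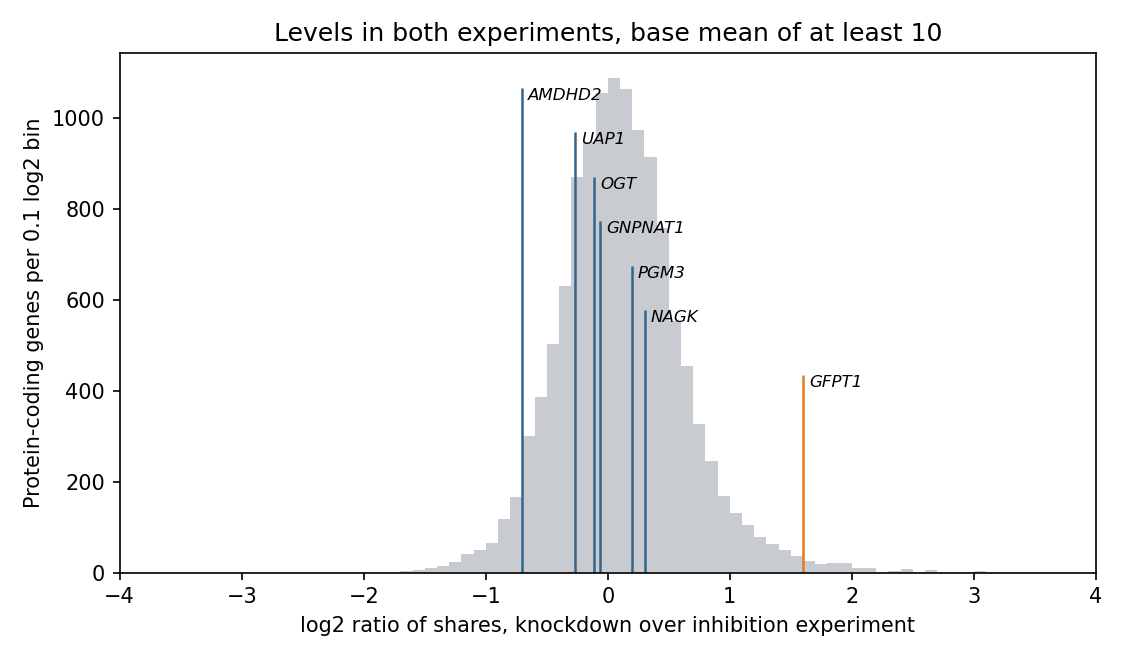
Distribution of the log2 ratio of shares, knockdown over inhibition experiment, for 12354 protein-coding genes in bins of 0.1 (grey), with the 7 expressed hexosamine pathway genes as vertical lines whose height has no meaning. Ratios beyond the axis are counted in its last bins. GFPT1 lies at 1.60, in the upper tail, AMDHD2 at -0.71, and the other 5 between -0.27 and 0.30.

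Reads from overlapping genes could enter some of these values, since the library kit does not record strand. In the GENCODE annotation, exons of DOP1A on the opposite strand cover 17.6% of the canonical PGM3 transcript, and DOP1A had base means of 560 and 507. Exons of CEMP1 on the opposite strand cover 43.6% of the canonical AMDHD2 transcript, and those of AC093525.1 on the same strand cover 11.9%. AC093525.1 had base means of 1.66 and 3.62. CEMP1 had base means of 63.7 and 120, also higher in the inhibition experiment, and its part in the AMDHD2 value was not tested. A noncoding gene, AL139317.3, covers 36.9% of the canonical GNPNAT1 transcript on the opposite strand and had base means of 4.43 and 34.7. No annotated gene shares exons with GFPT1, and 0.345% of the 50-base stretches of its transcripts occur in transcripts of another gene. The same share was 6.76% for AMDHD2, all of it with AC093525.1, and 1.91% for NAGK.

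The genes that feed the pathway were read from lists of fixed membership. Glucose enters through SLC2A1 and SLC2A3, is phosphorylated by hexokinases and is turned into fructose-6-phosphate by GPI. Of 8 genes of this list, 2 had a share over 2 times higher in the knockdown experiment and 0 a share over 2 times lower, against 4.89% and 1.26% of all genes compared, with a median log2 ratio of 0.07 against 0.09 over all genes. The 2 were HK1, with base means of 1261 and 534, and HK3, with 33.3 and 14.8. HK2, the hexokinase with the highest base mean, had 8534 in the knockdown and 12926 in the inhibition experiment. GPI had 15499 and 18853. Glutamine is taken up by SLC1A5, SLC38A1 and SLC38A2 and made by GLUL. All 4 genes of this list had a positive log2 ratio, from 0.02 for SLC1A5 to 0.63 for SLC38A1, with a median of 0.39, and 0 of 4 passed 2 times. A positive log2 ratio was found for 57.9% of all genes compared, and with the tables scaled by the median ratio that of SLC1A5 was -0.07, which leaves 3 of 4 positive. SLC1A5, the main glutamine carrier of many tumor cells, had base means of 45060 and 45106.

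OGA, which removes O-GlcNAc from proteins and so opposes OGT, had base means of 7031 in the knockdown and 4592 in the inhibition experiment, a log2 ratio of 0.64. The ratio of OGT to OGA per coding kilobase was 0.974 in the knockdown and 1.63 in the inhibition experiment. Per kilobase of all annotated exons it was 0.822 and 1.38, and per kilobase of the canonical transcript 1.06 and 1.78. Other amino sugar enzymes, among them GNE and NANS of sialic acid synthesis, the deaminases GNPDA1 and GNPDA2 that oppose GFPT1, and UAP1L1, a relative of UAP1, were 11 genes. Of these, 10 were above the minimum in both tables, with log2 ratios from -0.40 to 0.68, and 0 passed 2 times. For comparison, 4.89% of all genes compared were over 2 times higher in the knockdown experiment and 1.26% over 2 times lower. GNPDA1 had base means of 523 and 333, and GNPDA2 of 266 and 283. UAP1L1 had base means of 654 and 730.

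The labelled cell type was checked on its marker genes. MPO, the myeloperoxidase of promyelocyte granules, had the highest base mean of all genes in both tables, 506765 in the knockdown and 824818 in the inhibition experiment. Of 7 promyelocyte markers, 6 were above the minimum in both tables, with log2 ratios from -1.30 for AZU1 to 1.94 for KIT, and a median of -0.67. The ratio was negative for 4, MPO (-0.68), CTSG (-0.66), PRTN3 (-0.77) and AZU1, and positive for 2, CD33 (0.09) and KIT. Over all genes compared, 57.9% had a positive ratio. Past 2 times were 1 higher in the knockdown experiment, KIT, and 1 lower, AZU1, against 4.89% and 1.26% of all genes compared. KIT had low base means, 66.3 and 17.6, and the paper treats it as a marker of stem or progenitor cells. ELANE, neutrophil elastase, was near 0 in both, at 1.10 and 3.87. Of 2 erythroid markers, 0 were above the minimum in both tables and HBA1 was listed at 0, and the lymphoid marker CD3E had 1.55 and 2.98. Some marker genes, such as AZU1 and KIT, thus differed between the experiments in the same tables as GFPT1 and AMDHD2. Their part in those differences was not tested.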

How the data were processed

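Total RNA from 10 NB4 libraries was prepared with the TruSeq RNA v2 kit. According to the submitters' processing notes, the authors used bcl2fastq 2, FastQC 0.11.5, STAR 2.7, RSEM and DESeq2 with the genome hg38. The deposited signal values are base means: RSEM estimated counts divided by DESeq2 size factors and averaged by the authors over all libraries of an experiment. The annotation release is not given in the sources used here. The tables also hold the authors' own comparisons in 15 columns (log2 fold changes, standard errors, Wald statistics, p-values and adjusted p-values), which were not used. The tests on counts that had been planned need a value per library and were not run. The depth per library is unknown.

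Shares of the summed base means, their log2 ratio between experiments and ranks among protein-coding genes at or above a minimum base mean of 10 were computed in Python 3.11.15 with pandas 2.3.3, after a test on simulated data. Lengths, overlaps and positions came from GENCODE release 44 on GRCh38, to which 60261 of 60558 identifiers and all 8 members matched. The members and lists were chosen with earlier results of these data known. The text names the 8 members and genes of fixed lists, some genes of which are not reported here. Overlapping genes were found by position and are named after their values were seen. Other lengths, sets of ranked genes and scalings were tried.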

Additional observations from a re-analysis of the deposited data

How the results depend on the processing

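With the tables scaled to each other by the median ratio of protein-coding genes, the GFPT1 log2 ratio was 1.51, and with sums over protein-coding genes without the mitochondrial genome it was 1.58, against 1.60 with all genes. Both alternatives left the sign of the log2 ratio of each of the 7 expressed members as it was, and GFPT1 as the only 1 over 2 times higher. A minimum base mean of 100 put GFPT1 above 99.6% and AMDHD2 above 2.52% of the genes. The median ratio scaling moved the share of all genes over 2 times higher from 4.89% to 3.92%, and the share over 2 times lower from 1.26% to 1.72%. The length used moved the level per kilobase by over 1.5 times in 16 of 16 values with the exon union and in 14 of 16 with the canonical transcript, the latter chosen after seeing the data. Ranking among all genes above 0 moved 6 of 16 percentages by over 1.5 times. Alternatives on counts (DESeq2 normalization, no filter, leaving out a replicate) were not run, as no value per library was used. No paired analysis was possible because the columns used carry no replicate numbers. Differences between neighbouring levels are limited by the lack of any error.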

Other observations

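Genes for the transport and use of UDP-GlcNAc and for the assembly of N-glycans were read from lists of fixed membership. Of 9 genes for transport of UDP-GlcNAc and for N-glycan assembly, 0 had a share over 2 times higher in the knockdown experiment. This compares with 4.89% of all genes compared. A share over 2 times lower was found for 1 of the 9, against 1.26% of all genes. This was ALG14, a subunit of the enzyme that adds the second sugar to the N-glycan precursor, with base means of 141 in the knockdown and 289 in the inhibition experiment, a log2 ratio of -1.01. Its partner ALG13 had 612 and 478. DPAGT1, which adds the first sugar, had 2096 and 2617, and MGAT1, which starts the complex N-glycans, had 7580 and 6497. The median log2 ratio of the list was 0.01, against 0.09 over all genes.

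Of 15 other users of UDP-GlcNAc, 12 were above the minimum in both tables and 0 passed 2 times. Over all genes compared, 4.89% were over 2 times higher and 1.26% over 2 times lower, so little can be read from this 0. The hyaluronan synthases HAS1 and HAS2 were under 10 in both tables, and HAS3 had base means of 85.8 and 66.2. B3GNT2, which extends chains of poly-N-acetyllactosamine, had 2234 and 1193, a log2 ratio of 0.93. PIGY, of the enzyme that starts the GPI anchor, had 31.8 and 0.840 and was not compared.

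Markers of other cell types were not all absent. Of the lymphoid markers, CD79A had base means of 121 and 116. Of the epithelial markers, EPCAM had 432 and 403. Of the monocyte markers, CSF1R had 668 and 729. Per coding kilobase CSF1R had 229 in the knockdown and 250 in the inhibition experiment, below the 555 and 492 of PGM3. These genes were compared on the coding length only. Per kilobase of the canonical transcript PGM3 had 148 and 131, so their order may turn with the length used. CD14 had base means of 31.6 and 17.5, a log2 ratio of 0.88 that lay above 93.4% of genes. GSE1 had base means of 2963 and 4441, and KDM1A, which encodes LSD1, had 7648 and 6285. All of these values are authors' means without error, and no test was made.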
